A study of Mus musculus with 34 samples.

Results

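The step of the seminiferous epithelial cycle from stages IV-VI to stages VII-VIII was examined in segments of mouse seminiferous tubule, as stage group VII-VIII against stage group IV-VI. The arrays are given by their stage and treatment labels, and no measured value enters the rule. They are 8 of the 34 one-colour Agilent arrays of the series and 4 of its 17 groups, with 1 RNA sample per array and 2 numbered replicates per group. The remaining arrays hold whole testes, sorted or cultured Sertoli cells, tubules of other stages, and tubules that received another virus.

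The 4 groups were VII-VIII untreated, VII-VIII Venus, IV-VI untreated and IV-VI Venus. All tubules came from C57BL6/j mice of 6 to 8 weeks. In the Venus groups the testes had been injected 5 days before dissection with a lentivirus for the fluorescent protein Venus, taken here as the control for a virus carrying dnRARa, which blocks the alpha receptor for retinoic acid in a dominant negative way. Tubules with dnRARa at these stages, on 4 arrays, and untreated and Venus tubules of stages IX-XII, also on 4 arrays, were used as comparisons. The later group is titled VI-VIII, while its source name reads VII-VIII. How the segments were staged, what drives the viral insert and which cells took it up are not given in the sources used here.

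Retinoic acid, the active form of vitamin A, is made from retinol by retinol dehydrogenases and then retinaldehyde dehydrogenases, is broken down by Cyp26 enzymes, and acts through retinoic acid receptors paired with retinoid X receptors on DNA. In the mouse testis it triggers spermatogonial differentiation and entry into meiosis, and both begin around stages VII and VIII of the cycle. At those stages sperm are also released, and preleptotene spermatocytes cross the junctions between Sertoli cells, the somatic cells that line the tubule and hold the germ cells.

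Levels below are log2 of the processed signal minus the log2 75th percentile of that array, so that 0 is the 75th percentile and 1 unit is a 2-fold difference. Levels of different genes come from different probes and are not set against each other. A difference is VII-VIII minus IV-VI on this scale, from a limma fit to the 8 arrays with the arm (untreated or Venus) as a block. It passed at an adjusted p under 0.05 (Benjamini-Hochberg, two-sided, over all genes tested). A gene is said here to have risen or fallen when it passed and when, in each arm, both VII-VIII arrays lay on the same side of both IV-VI arrays.

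The step moved a large share of the transcriptome. Of 19025 genes tested, 10516 passed, which is 55.3% of them. By the stricter criterion 4822 genes rose (25.3%) and 5096 fell (26.8%), together 52.1%, and 2960 of these moved at least 2-fold, 1659 up and 1301 down. Counts within gene groups are read against these shares. These counts depend on the processing. With normexp background correction, another treatment of dim signal, 5269 genes passed and 5031 rose or fell. That treatment adds an offset of 50 to each corrected intensity, which by itself shrinks log2 differences of dim probes. Without the arm block 5217 rose or fell. Under normexp 164 of 164 named genes that passed kept their sign, 43 became smaller by over 1.5 times and 39 no longer passed. The median difference over all genes tested was -0.02.

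Stra8 and Cyp26a1, the genes most closely tied to retinoic acid signalling, both rose. The fitted change of Stra8 was 15.9-fold, and Cyp26a1, which could be measured at both stages in Venus tubules alone, rose there by 4.09 on the log2 scale and by at least 9.82-fold in untreated tubules. Stra8 is needed by germ cells to enter meiosis and is switched on by retinoic acid. Its level was 5.46 and 5.62 in untreated and 4.66 and 4.22 in Venus tubules of stages VII-VIII, against 1.25, 0.97, 1.02 and 0.75 at IV-VI in the same order. All 4 later arrays lay far above all 4 earlier ones, and the difference was 3.99 (SE 0.2), a 15.9-fold change (limma, adjusted p = 1.92e-05). Within the slides that carried both stages of the Venus arm the difference was 3.64 and 3.47.

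Cyp26a1 encodes an enzyme that degrades retinoic acid and is itself induced by it. It stood at -2.16 and -1.34 in untreated and -1.64 and -2.6 in Venus tubules of stages VII-VIII, against -5.38, -6.14, -5.83 and -6.58 at IV-VI. The groups did not overlap, and the test over both arms passed (limma, adjusted p = 6.04e-05), with a fitted difference of 4.05 that was 1.85 with normexp background correction. Neither untreated array of IV-VI had its probe well above background, so the change there is given as a bound. Such a bound sets the bright group against the dimmest detected signal on the arrays of the dim group.

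**Figure D1:**
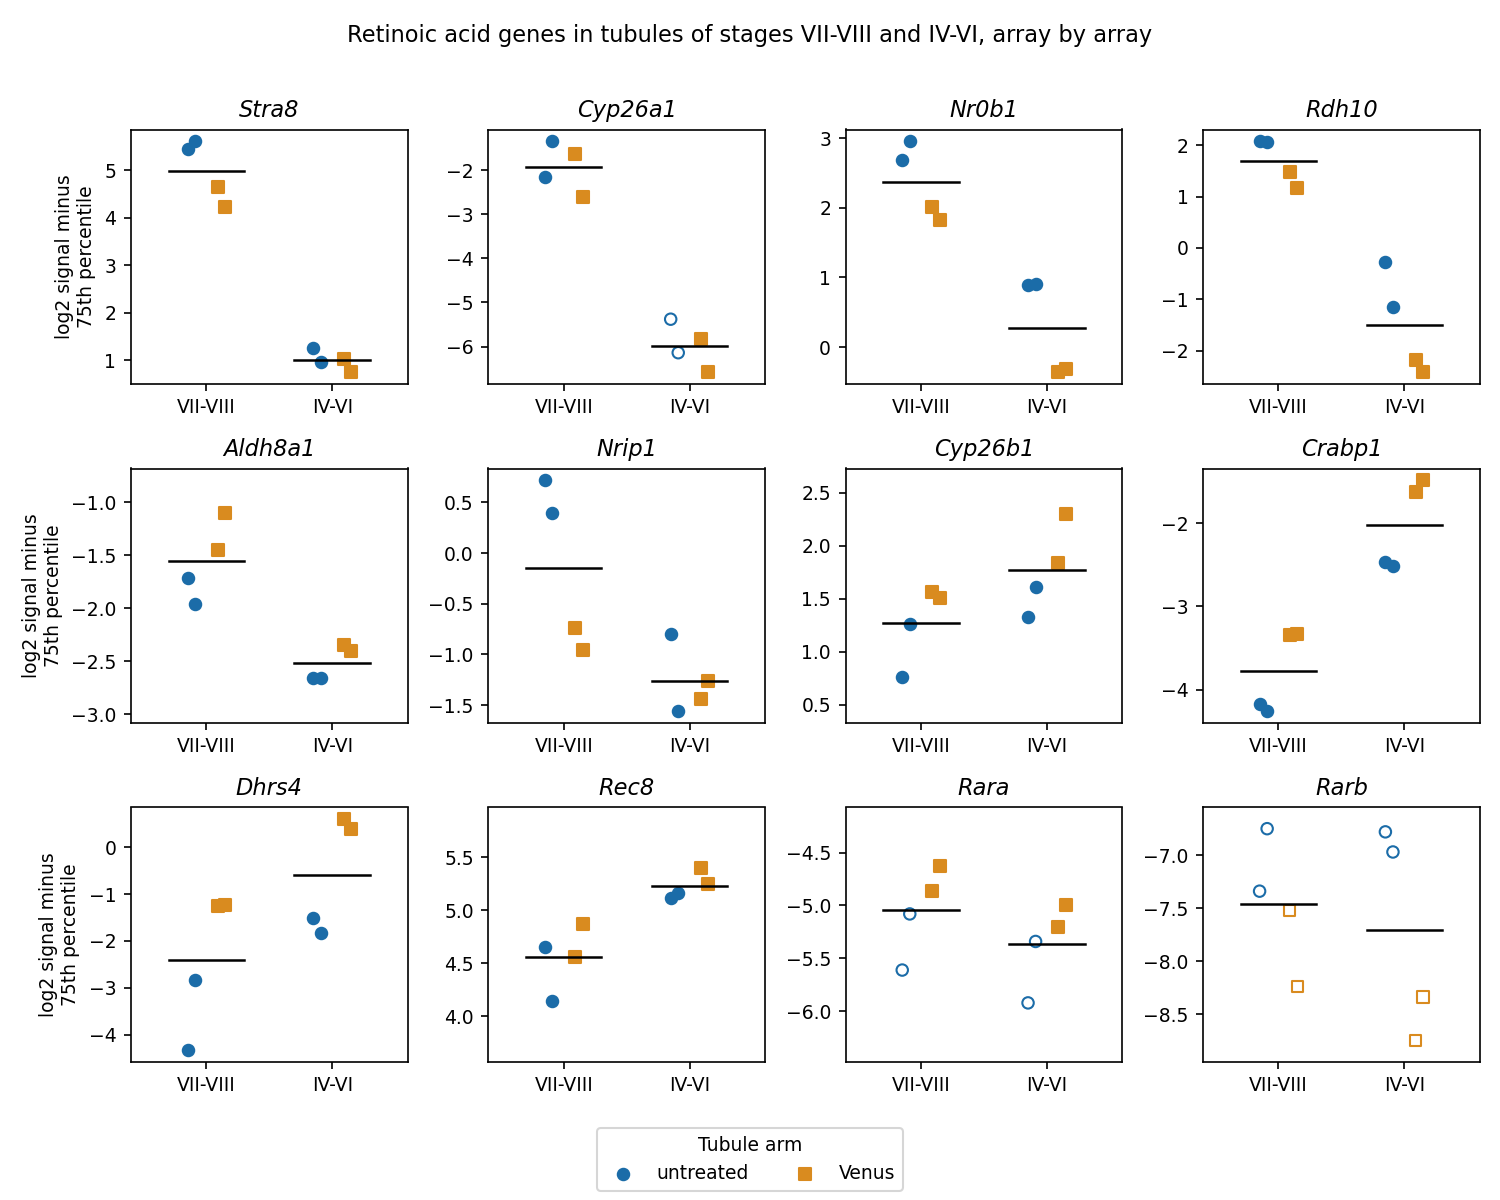
Level of 12 retinoic acid genes on each array (log2 signal minus the array's 75th percentile, a separate scale per gene), VII-VIII on the left and IV-VI on the right of each panel. Circles are untreated and squares Venus arrays, open symbols mark groups not detected above background on both arrays, and the line is the mean of 4 arrays. Stra8, Cyp26a1, Nr0b1 and Rdh10 are separated without overlap, Crabp1 in the opposite direction within each arm, and Rarb lies at background throughout.

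The proximal promoters of Cyp26a1, Stra8 and Rarb are shown because Cyp26a1 and Stra8 rose together while Rarb, a classical retinoic acid target in other tissues, was not detected. Each is the 250 bases before the annotated start of the gene, 5′ to 3′ on the strand of the gene, from RefSeq on GRCm38.p6. The Cyp26a1 window is chr19:37697558-37697807 on the plus strand, the Stra8 window chr6:34920698-34920947 on the plus strand and the Rarb window chr14:16575477-16575726 on the minus strand. Capitals mark a direct repeat of the receptor half-site with a spacer of 5 bases, called DR5.
Cyp26a1: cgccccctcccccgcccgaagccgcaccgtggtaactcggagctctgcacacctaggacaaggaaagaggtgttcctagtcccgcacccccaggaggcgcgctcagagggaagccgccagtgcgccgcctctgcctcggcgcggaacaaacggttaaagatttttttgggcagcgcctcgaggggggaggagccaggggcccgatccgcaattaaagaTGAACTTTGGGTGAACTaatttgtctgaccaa
Stra8: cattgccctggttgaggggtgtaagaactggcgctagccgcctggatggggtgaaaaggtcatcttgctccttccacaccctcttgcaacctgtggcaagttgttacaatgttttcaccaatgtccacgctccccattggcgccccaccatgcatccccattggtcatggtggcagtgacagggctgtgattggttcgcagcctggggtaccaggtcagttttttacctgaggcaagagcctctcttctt
Rarb: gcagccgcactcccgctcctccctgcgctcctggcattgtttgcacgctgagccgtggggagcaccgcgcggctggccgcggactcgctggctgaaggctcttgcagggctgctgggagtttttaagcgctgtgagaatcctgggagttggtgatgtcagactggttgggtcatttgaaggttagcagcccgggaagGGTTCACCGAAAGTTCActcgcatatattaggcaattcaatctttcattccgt
Half-sites were taken as AGGTCA, with the variants AGTTCA, then GGGTCA, and also GGTTCA, both strands were read, and spacers of 1, 2 and 5 bases (DR1, DR2 and DR5) were searched. A DR5 was found in the Cyp26a1 and the Rarb window and none of the 3 repeats in the Stra8 window. Over all 32851 promoters of the table, 0.164% held a DR1, 0.174% a DR2 and 0.088% a DR5. Of the 9657 tested genes with a promoter in the table, 4 held a DR5, of which 2 rose and 0 fell. A match is a description of the letters in this window, and its absence says nothing about binding elsewhere. Rdh10 and Plat, described below, are not in the promoter table.

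Among the receptors themselves little could be measured. Rara, the receptor alpha that the dominant negative form competes with, was well above background on both Venus arrays of each stage and on no untreated array. It stood at -5.61, -5.08, -4.86 and -4.63 at VII-VIII, against -5.92, -5.34, -5.2 and -5 at IV-VI, and was not tested for the step. Rarb was at background on all 8 arrays, with levels from -8.24 to -6.75 at VII-VIII and from -8.75 to -6.78 at IV-VI. Rarg was likewise detected only on the Venus arrays, 2 of 4 at each stage. Of the receptors and cofactors list 13 of 20 members were tested, of which 2 rose and 5 fell, with a median difference of -0.23.

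The members that rose were coregulators. Nrip1 (RIP140), a corepressor that is also a retinoic acid target, stood at 0.72, 0.39, -0.74 and -0.96 at VII-VIII, against -0.8, -1.56, -1.44 and -1.26 at IV-VI. Its difference was 1.12 (SE 0.29, limma adjusted p = 0.0125), from steps of 1.74 in untreated and 0.5 in Venus tubules that did not pass the test of their difference (adjusted p = 0.256). With slide as a block it was 0.5 and no longer passed (adjusted p = 0.224). The acetyltransferase gene Ep300 rose by 1.08 (SE 0.13, adjusted p = 0.000365). With normexp background correction that difference was 0.59 and did not pass.

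Among those that fell were the corepressor genes Ncor1 (-0.49) and Hdac3 (-0.47), the coactivator gene Ncoa3 (-0.57) and the orphan receptor gene Nr2c1 (-0.52). Rxra, a retinoid X receptor, had probes that disagreed. The probe used, the brighter one over all 34 arrays, gave -0.53 (adjusted p = 0.112). It passed with a replicate block (adjusted p = 0.0295) and without IV-VI Venus replicate 1 (-0.75). A second probe, brighter on the 8 arrays of the step, gave 2.44 (adjusted p = 3.64e-05), and the mean of both gave 0.95.

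The genes of retinoid supply did not move as a block. Of 25 members, 19 were tested, of which 6 rose and 3 fell, with a median difference of 0.27. The number that fell was 5 without IV-VI untreated replicate 1 or without VII-VIII untreated replicate 2. Under normexp background correction 3 rose and 0 fell. The rise of Rdh10 was the largest of the list. Rdh10 oxidises retinol to retinaldehyde, the first and rate-limiting step of synthesis, and stood at 2.08, 2.07, 1.48 and 1.16 at VII-VIII, against -0.27, -1.16, -2.18 and -2.42 at IV-VI. All later arrays lay above all earlier ones, and the difference was 3.2 (SE 0.24), a 9.22-fold change (limma, adjusted p = 5.77e-05). Within the slides of the Venus arm it was 3.66 and 3.58. A second, dimmer Rdh10 probe rose by 1.09 (limma, adjusted p = 0.0289).

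The enzymes of the next step moved in different directions. Aldh1a2, a retinaldehyde dehydrogenase of germ cells, rose by 0.33 (SE 0.08, adjusted p = 0.0126), and by 0.2 with slide as a block, where it did not pass. Aldh1a3, of the same enzyme family, fell by 1.12 (SE 0.19, adjusted p = 0.00167), and Aldh1a1, the form of Sertoli cells, had a difference of -0.57 that did not pass (adjusted p = 0.0583, and 0.0104 with a replicate block). Without untreated replicate 1 of IV-VI or replicate 2 of VII-VIII Aldh1a1 did pass, at -0.69 and -0.74. Aldh8a1, which oxidises the 9-cis form of retinaldehyde, stood at -1.71, -1.96, -1.45 and -1.1 at VII-VIII, against -2.66, -2.66, -2.35 and -2.4 at IV-VI, a difference of 0.96 (SE 0.11, adjusted p = 0.000315).

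Crabp1 binds retinoic acid in the cytoplasm. It stood at -4.17, -4.26, -3.35 and -3.33 at VII-VIII, against -2.46, -2.52, -1.62 and -1.48 at IV-VI. Untreated levels were lower than Venus levels at both stages, and within each arm the stages did not overlap, with a difference of -1.76 (SE 0.07, a 3.38-fold fall, adjusted p = 1.15e-05). With normexp background correction it was -0.74 and did not pass. Dhrs4, a retinal reductase, fell by 1.82 (SE 0.29, adjusted p = 0.00144), with one VII-VIII untreated array (-4.33) well below the other (-2.84). Under normexp background correction Dhrs4 was -1.03 and Aldh1a3 -0.71, and Aldh1a2 (0.28) did not pass.

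Smaller rises were seen for Bco1 (0.82), which splits beta-carotene, and for the retinol dehydrogenase genes Rdh5 (0.58, and 0.49 with normexp background correction, not passed) and Rdh11 (0.68). A second Rdh11 probe, brighter on the 8 arrays of the step, gave -0.36 and did not pass. Lrat, which stores retinol as esters, had a difference of 0.21 (adjusted p = 0.182). Adh4, an alcohol dehydrogenase that also oxidises retinol, had 0.48 (adjusted p = 0.0817) and passed with a replicate block (adjusted p = 0.0153). Dhrs3, which returns retinaldehyde to retinol, had -0.71 (adjusted p = 0.0508) and passed with a replicate block (adjusted p = 0.0134), without IV-VI untreated replicate 1 (-0.93) and without VII-VIII untreated replicate 2 (-0.87). Adh1, an alcohol dehydrogenase, had -1.24 (adjusted p = 0.0646, and 0.0238 with a replicate block) and passed without IV-VI Venus replicate 1 (-1.74) or VII-VIII Venus replicate 2 (-1.54).

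Cyp26b1, the degrading enzyme of the tubule wall, moved against Cyp26a1. It stood at 0.76, 1.26, 1.56 and 1.51 at VII-VIII, against 1.33, 1.61, 1.84 and 2.3 at IV-VI, a difference of -0.5 (SE 0.15, limma adjusted p = 0.0237). The stages lay apart within each arm but overlapped across arms. It did not pass with normexp background correction (-0.52) or with slide as a block (-0.54). This call is fragile: it was lost without IV-VI untreated replicate 2 (-0.45), VII-VIII untreated replicate 1 (-0.4), IV-VI Venus replicate 2 (-0.4), VII-VIII Venus replicate 1 (-0.5) or VII-VIII Venus replicate 2 (-0.48). Cyp26c1 was not analysed here.

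Of 28 textbook retinoic acid targets 17 were tested, of which 5 rose and 3 fell. The median difference was 0.21. With slide as a block 4 rose and 0 fell, with a median of -0.04. Beside Stra8, Cyp26a1 and Nrip1 the risers were Nr0b1 and Rai14. Nr0b1 (Dax1), an orphan nuclear receptor of Sertoli cells, stood at 2.69, 2.96, 2.01 and 1.82 at VII-VIII, against 0.89, 0.9, -0.36 and -0.32 at IV-VI. The stages did not overlap, and the difference was 2.09 (SE 0.1, a 4.26-fold rise, adjusted p = 1.79e-05). Rai14, named for its induction by retinoic acid, rose by 0.57 (adjusted p = 0.000535).

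Rec8, a meiotic cohesin gene that retinoic acid induces in fetal germ cells, fell. It stood at 4.65, 4.14, 4.56 and 4.87 at VII-VIII, against 5.12, 5.16, 5.4 and 5.25 at IV-VI, with no overlap and a difference of -0.68 (SE 0.13, adjusted p = 0.00356). With slide as a block the value was -0.61 and did not pass. Gata6 fell by 0.83 (adjusted p = 0.00234, a second probe -0.27 and not passed, and -0.64 and not passed with slide as a block), and Kit, the receptor of differentiating spermatogonia, had a difference of -0.12 that did not pass (adjusted p = 0.534). Hoxb1, Hoxa5 and Crabp2, targets in the embryo, were at background on all 8 arrays.

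**Figure D2:**
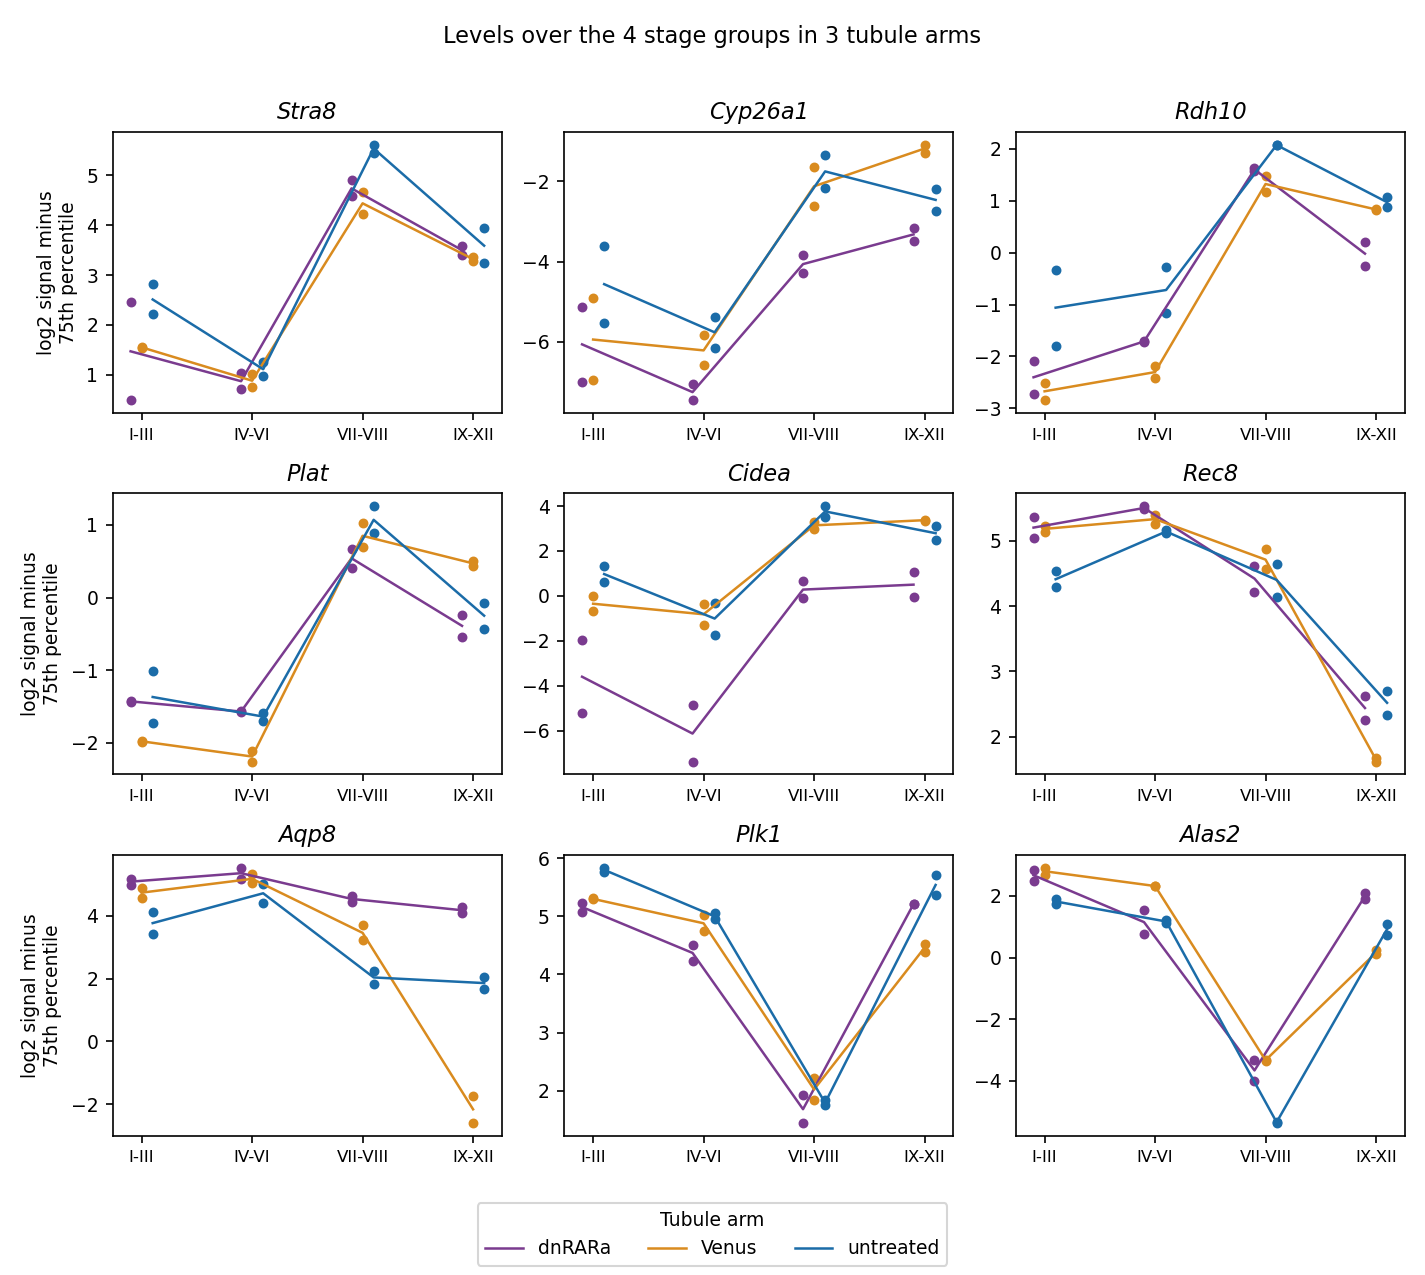
Level of 9 genes (log2 signal minus the array's 75th percentile, a separate scale per gene) over the 4 stage groups of the cycle in dnRARa, Venus and untreated tubules. Points are single arrays and lines join the means of 2 arrays. Stra8, Rdh10 and Plat are highest at VII-VIII in all 3 arms, Plk1 and Alas2 lowest, and Rec8 goes on falling to IX-XII.

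The retinoic acid genes differed in what followed the step. VII-VIII was set against IX-XII in a limma fit of the 16 untreated and Venus arrays of all 4 stage groups, which shares the VII-VIII arrays with the step. In it 10687 of 18755 genes passed, 57% of them, with 27.4% higher at VII-VIII and 29.6% lower. Stra8 was 1.53 higher at VII-VIII than at IX-XII (adjusted p = 4.49e-05), and Rdh10 was 0.8 higher without passing (adjusted p = 0.061). Cyp26a1 showed a difference of -0.11 (adjusted p = 0.882), with means of -4.56, -5.76, -1.75 and -2.46 over the 4 stage groups in order from I-III in untreated tubules and of -5.94, -6.21, -2.12 and -1.18 in Venus tubules. At IV-VI untreated it lay below detection, and at I-III 1 of 2 arrays of each arm detected it.

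Lrat was 2.09 higher at VII-VIII than at IX-XII (adjusted p = 5.77e-06), after the step in which it had not passed. Aldh8a1 was 1.61 higher (adjusted p = 8.24e-07), so that its mean was highest at VII-VIII in both arms. Aldh1a3 was lower at VII-VIII than at IX-XII, with a difference of -2.43 (adjusted p = 1.17e-06). Rec8 was 2.47 higher at VII-VIII than at IX-XII (adjusted p = 2.67e-06), so that it was lower at each later stage group after IV-VI. Among all genes that rose at the step, 2179 were also higher at VII-VIII than at IX-XII and 729 were lower. Among those that fell, 2413 were lower at VII-VIII than at IX-XII and 870 were higher. Over all 18755 genes of that fit 27.4% were higher at VII-VIII and 29.6% lower. The genes that rose or fell were chosen on the same VII-VIII arrays. That choice by itself favours higher values at VII-VIII among those that rose and lower ones among those that fell. These counts therefore cannot be read as a result about what follows the step.

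The step in dnRARa tubules was compared with that in Venus tubules in a fit of 12 arrays, dnRARa step minus Venus step, which shares the Venus arrays with the results above. With limma 0 of 23641 genes passed (0%), 2214 had an unadjusted p under 0.05, and the smallest adjusted p was 0.105. Other fits gave up to 119 genes, as described under the dependence on processing. Stra8 moved by 3.87 in dnRARa tubules, against 3.55 in Venus tubules, with levels of 4.59 and 4.9 at VII-VIII and 1.04 and 0.71 at IV-VI under dnRARa (adjusted p of the difference 0.858). Cyp26a1 under dnRARa stood at -3.83 and -4.28 at VII-VIII, against -7.05 and -7.45 at IV-VI, where neither array had it well above background.

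That is a dnRARa step of at least 4.03-fold for Cyp26a1, a bound that gives no exact difference from the Venus step. Rdh10 moved by 3.31 in dnRARa and 3.62 in Venus tubules (adjusted p = 0.905). Nr0b1 moved by 1.33 and 2.25 (difference -0.92, SE 0.23, adjusted p = 0.223), and Plat by 2.11 and 3.04 (difference -0.93, SE 0.24, adjusted p = 0.24). Of the 4822 genes that rose, 4663 had a positive dnRARa step, with a median of 0.63 beside 0.73 for the step in both arms. Of the 5096 that fell, 4862 had a negative one, with a median of -0.51 beside -0.63. These genes were chosen on the untreated and Venus arrays alone, a choice that by itself enlarges the step there. The gap between the medians therefore cannot be read as an effect of dnRARa. The share of all genes with a dnRARa step of each sign was not counted.

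The genes of the step with the smallest adjusted p for this difference, 0.105 in each case, are given as values. They were picked among genes that rose or fell, a choice that used the Venus arrays and by itself favours a smaller step with dnRARa. Gpm6b, a membrane proteolipid gene, stood at 0.26 and 0.52 at VII-VIII in dnRARa tubules, against 1.15 and 1.16 at IV-VI. In Venus tubules it stood at -1.32 and -1.55 at VII-VIII, against 1.46 and 1.32 at IV-VI, so that its fall was -0.77 with dnRARa and -2.83 with Venus. Runx2, a transcription factor of bone, moved by 2.14 and 4.06, and Actn3, a muscle actinin, by 1.18 and 3.38. Mpzl2, an adhesion protein, moved by -0.23 and -2.4, with a second probe that rose by 0.57 in the step of both arms, and Hebp1, a heme binding protein, by -0.46 and -1.62. None of these passed, and 0 of the 9918 genes that rose or fell did.

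**Figure D3:**
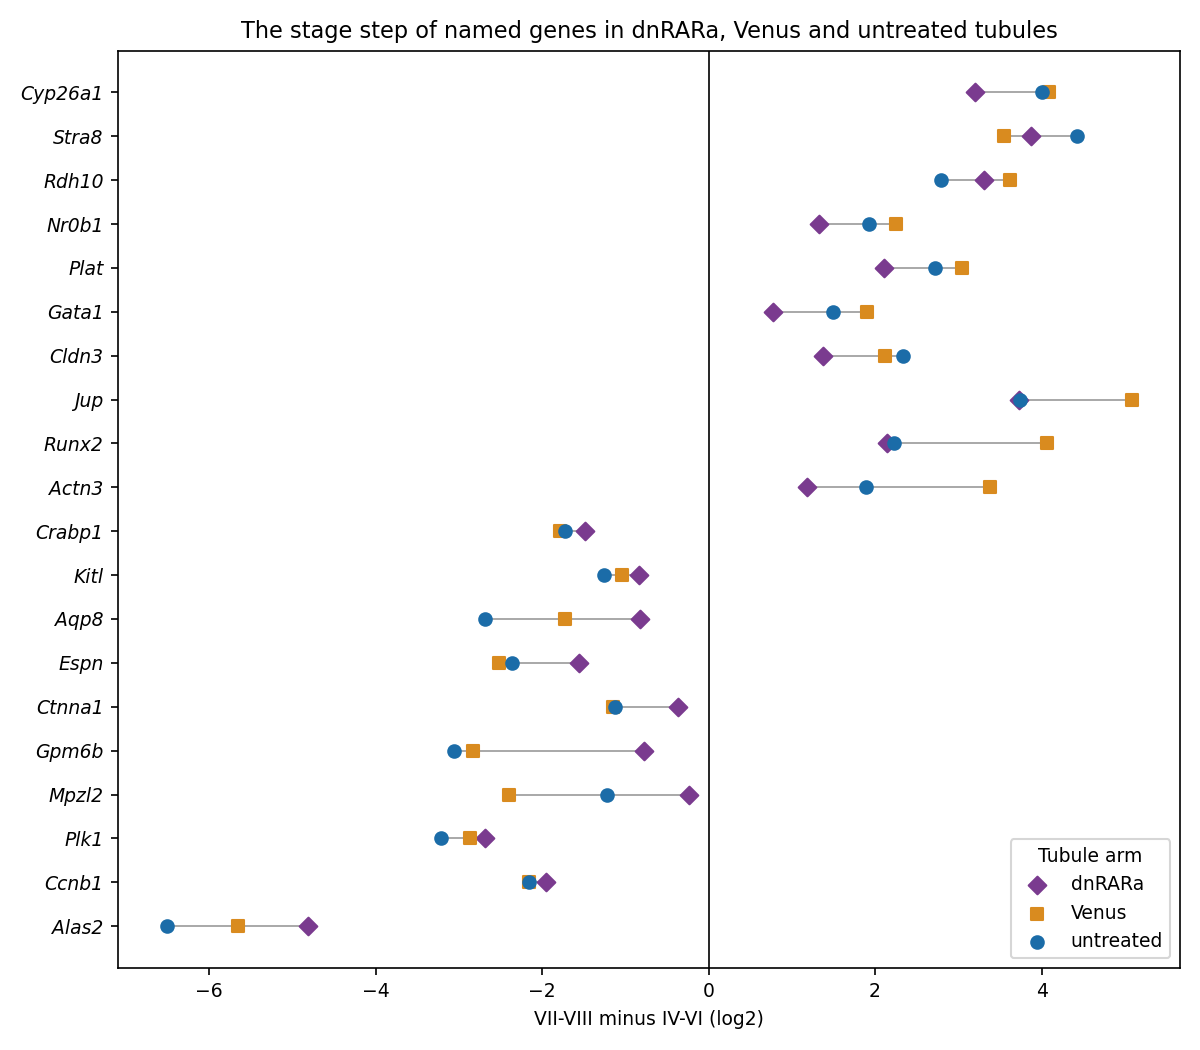
The step (VII-VIII minus IV-VI, log2) of 20 named genes in dnRARa (diamonds), Venus (squares) and untreated tubules (circles), each the difference of 2 means of 2 arrays. Gpm6b, Mpzl2, Runx2 and Actn3 have the widest gaps between dnRARa and Venus among those drawn, and those of Stra8, Rdh10 and Ccnb1 lie close together. The steps of Cyp26a1 in dnRARa and untreated and of Alas2 in untreated tubules include undetected arrays and are drawn as fitted.

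Genes of mitosis fell together. Of 18 tested members of that list 14 fell and 0 rose, with a median difference of -0.81, against 26.8% of all genes falling. Kif11, a spindle motor, passed at 0.4 with overlapping arrays and counted as risen when untreated replicate 1 of either stage was left out. Plk1, the kinase that drives entry into and exit from mitosis, stood at 1.83, 1.76, 1.83 and 2.21 at VII-VIII, against 5.05, 4.96, 5.02 and 4.75 at IV-VI. The stages were far apart, and the difference was -3.04 (SE 0.12, an 8.2-fold fall, limma adjusted p = 1.17e-05).

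Ccnb1 (cyclin B1) stood at 1.26, 0.83, 0.99 and 1.26 at VII-VIII, against 3.19, 3.22, 3.35 and 3.23 at IV-VI, a difference of -2.16 (SE 0.11, adjusted p = 2.08e-05). Aurkb, the kinase of the chromosomal passenger complex, fell by 1.84, the kinetochore motor gene Cenpe by 1.63, the ubiquitin conjugating enzyme gene Ube2c by 1.31 and the checkpoint kinase gene Bub1 by 1.18. Aurkb was -0.8 with normexp background correction and did not pass (adjusted p = 0.0886). Plk1 was also lower at VII-VIII than at IX-XII, by -3.1 (adjusted p = 7.17e-08), and Aurkb by -3.86 (adjusted p = 9.07e-09). Birc5, Bub1b and Ccna2, which the rule for naming genes did not choose, were the members that did not pass, at -0.09, -0.06 and -0.12.

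Replication genes of S phase split. Of 22 members 11 fell and 6 rose, with a median difference of -0.25. The origin licensing genes Cdt1 (-1.05), Cdc6 (-0.98), Mcm2 (-0.74) and Mcm3 (-0.85) and the thymidylate synthase gene Tyms (-1.12) fell. A second Cdc6 probe rose by 0.92. Chaf1b, a subunit of the chromatin assembly factor that follows the replication fork, stood at 2.96, 2.95, 2.75 and 2.53 at VII-VIII, against 1.81, 1.68, 1.5 and 1.56 at IV-VI, a difference of 1.16 (SE 0.08, adjusted p = 4.12e-05). Cyclin E2 (Ccne2, 1.45) and the sliding clamp gene Pcna (0.72), named after their values were seen, rose as well.

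The proximal promoters of Ube2c and Plk1 are given because both genes fell. The window of one holds letters that match the cell cycle homology region, an element of mitotic genes. The letters TTTGAA were searched on both strands of the 250 bases before the start and are in capitals where found. The Ube2c window is chr2:164769679-164769928 on the plus strand and the Plk1 window chr7:122159185-122159434 on the plus strand (RefSeq, GRCm38.p6).
Ube2c: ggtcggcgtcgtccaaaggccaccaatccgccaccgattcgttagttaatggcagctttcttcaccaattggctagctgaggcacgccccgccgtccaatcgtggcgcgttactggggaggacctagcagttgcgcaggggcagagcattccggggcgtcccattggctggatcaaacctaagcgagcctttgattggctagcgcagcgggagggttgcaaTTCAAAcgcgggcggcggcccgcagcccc
Plk1: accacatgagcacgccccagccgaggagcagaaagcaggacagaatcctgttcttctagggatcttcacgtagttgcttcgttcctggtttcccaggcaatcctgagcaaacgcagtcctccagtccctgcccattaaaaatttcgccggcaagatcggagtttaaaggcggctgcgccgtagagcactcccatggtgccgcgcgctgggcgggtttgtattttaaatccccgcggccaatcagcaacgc
These letters were found in 6 of the 15 mitosis genes with a promoter in the table (40%), in 13.2% of the tested genes with one, and in 13.1% of those that rose and 13.1% of those that fell. The Plk1 window holds none, while that of Kif11, which did not fall, holds a match. How many of the 6 fell was not counted. A match here only describes the letters in this window, and its absence says nothing about elements elsewhere.

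Germ cell genes outside mitosis moved in both directions, as did all genes tested, of which 25.3% rose and 26.8% fell. Of 20 tested genes of meiotic entry and early prophase 6 rose and 6 fell, with a median difference of -0.1, and the number that rose was 3 without untreated replicate 1 of IV-VI or without either untreated array of VII-VIII. With a replicate block it was 4. Ccna1, the cyclin A of male meiosis, stood at 0.76, 0.76, 1.67 and 1.93 at VII-VIII, against 3.54, 3.19, 4.53 and 4.31 at IV-VI, with no overlap and a difference of -2.61 (SE 0.11, adjusted p = 1.18e-05). The synaptonemal complex gene Sycp1 (-0.95), the recombination gene Tex15 (-0.92) and the axis gene Hormad1 (-0.56) fell, the last with a second probe at 0.3 that did not pass. Sycp2, another axis gene, rose by 0.59, with other probes at 0.09 and 0.21 that did not pass.

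Spermatogonial markers included 3 that rose and 5 that fell of 14 tested. Etv5, a transcription factor of stem spermatogonia and Sertoli cells, stood at -6.46, -6.68, -5.31 and -5.66 at VII-VIII, against -4.42, -4.29, -3.42 and -3.26 at IV-VI. It was not well above background on either untreated array of VII-VIII, where it was at least 1.71-fold lower (adjusted p over both arms 1.64e-05). Its difference was -0.46 with normexp background correction and did not pass (adjusted p = 0.51). Sohlh2, a regulator of spermatogonial differentiation, fell by 1.92 (SE 0.14, adjusted p = 4.83e-05). Dazl, an RNA binding protein of germ cells, fell by 0.98 and Uchl1, a ubiquitin hydrolase, rose by 0.8. In RNA from whole tubules fewer cells of a type and less RNA per cell cannot be told apart.

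Of 16 markers of pachytene and later spermatocytes 7 fell and 3 rose, with a median of -0.25. Mybl1, the pachytene transcription factor A-MYB, fell by 1.34 (SE 0.11, adjusted p = 7.47e-05), the axonemal gene Spag6 by 1.15 and Tbpl1, a TBP-like factor, by 1.04. One of 3 Tbpl1 probes rose by 0.92. Nxf2, an RNA export factor, rose by 1 and the piRNA pathway gene Tdrd1 by 0.8. Summed signal of the list had a median of 429 on VII-VIII arrays and 464 on IV-VI arrays, in units of the array's 75th percentile.

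Of 17 round spermatid markers 6 rose and 3 fell, and of 19 elongating spermatid markers 6 rose and 3 fell. The medians were 0.17 and -0.01, the second between -0.07 and 0.01 over the scaling alternatives. Summed round spermatid signal was lower at VII-VIII in 4 of 4 same-numbered pairs (median 488 against 514 at IV-VI). Summed elongating spermatid signal was higher at VII-VIII in 3 of 4 pairs (median 1720 against 1620). Cd46, a complement regulator of the inner acrosomal membrane, stood at 2.16, 2.06, 0.72 and 0.6 at VII-VIII, against -1.9, -2.75, -6.19 and -6.15 at IV-VI. Its difference was 5.63 (SE 0.47, adjusted p = 7.92e-05), with steps of 6.83 in the Venus arm and 4.43 in the untreated arm (adjusted p of that difference 0.0909). Sox30, a transcription factor of spermiogenesis, rose by 1.3, the egg fusion gene Izumo1 by 1.02 and the sheath protein gene Akap3 by 0.85, while Zpbp2 (-0.9) and the sperm glyceraldehyde dehydrogenase gene Gapdhs (-0.72) fell.

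**Figure D4:**
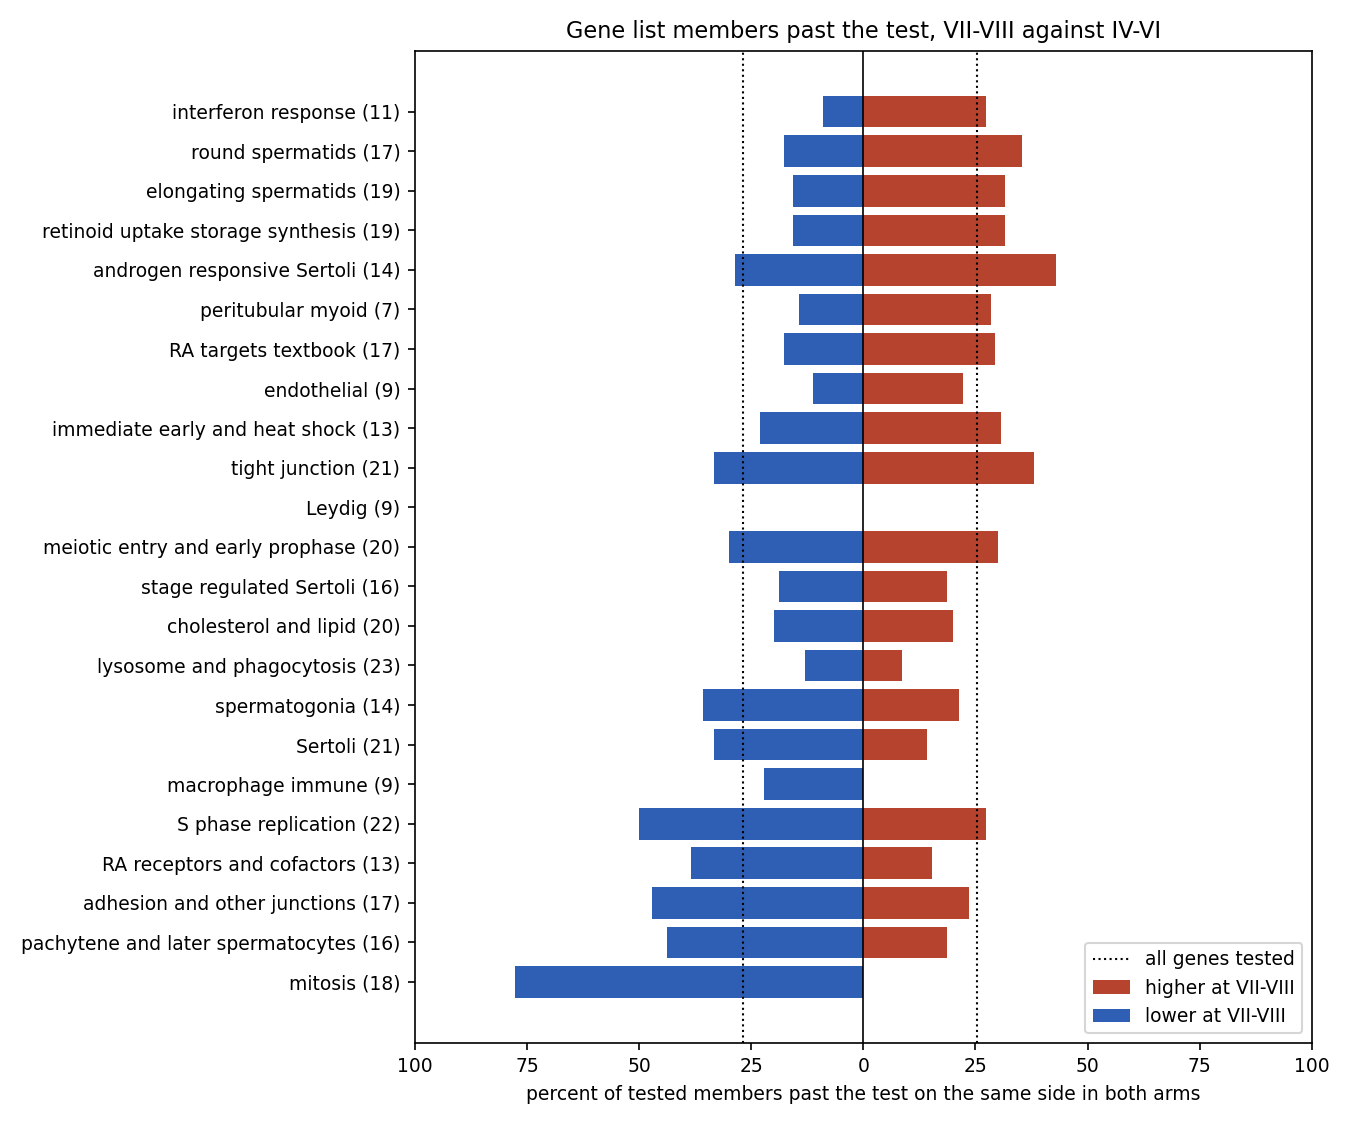
Share of the tested members of each gene list (number in brackets) that fell (bars to the left) and rose (bars to the right) at VII-VIII against IV-VI. Dotted lines mark the shares over all 19025 genes, 26.8% and 25.3%. Mitosis has 14 of 18 members on the falling side and none on the rising side.

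Sertoli cell markers changed in part. Of 21 tested, 3 rose and 7 fell, with a median of -0.17. The normexp alternative had 2 that rose and 1 that fell. The identity factor Sox9 stood at -0.81, -0.58, 0.2 and 0.22 at VII-VIII, against -0.73, -0.67, 0.09 and 0.3 at IV-VI, and its difference of 0.02 did not pass (adjusted p = 0.892). The tight junction gene Cldn11 likewise had 0.13 (adjusted p = 0.213). The summed Sertoli signal ran from 211 to 296 on VII-VIII arrays (median 254) and from 226 to 361 on IV-VI arrays (median 294). Between same-numbered arrays of an arm it was lower at VII-VIII in 4 of 4 pairs, and its part in the falls was not tested.

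Of 16 tested genes known to cycle in Sertoli cells 3 rose and 3 fell, close to the shares of all genes, with differences from -2.2 to 2.88. Under normexp background correction 3 rose and 1 fell. Plat, the tissue plasminogen activator, stood at 0.89, 1.26, 1.02 and 0.69 at VII-VIII, against -1.7, -1.59, -2.26 and -2.12 at IV-VI. The stages were apart on all 8 arrays, and the difference was 2.88 (SE 0.13, a 7.36-fold rise, adjusted p = 1.24e-05). Gata1, a zinc finger factor of Sertoli cells, stood at -0.81, -0.67, 0.02 and 0.05 at VII-VIII, against -2.19, -2.27, -2.08 and -1.64 at IV-VI, a difference of 1.69 (SE 0.13, adjusted p = 6.04e-05). Shbg, a sex steroid binding globulin, rose by 0.93.

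The water channel gene Aqp8 stood at 2.24, 1.84, 3.22 and 3.71 at VII-VIII, against 4.42, 5.02, 5.04 and 5.33 at IV-VI, a fall of 2.2 on the log2 scale (SE 0.25, adjusted p = 0.000299). Kitl, the ligand that spermatogonia need from Sertoli cells, fell by 1.14 (SE 0.1, adjusted p = 7.81e-05), and the filament gene Vim by 0.6. Kitl was -0.62 with normexp background correction and did not pass (adjusted p = 0.145). Trf (transferrin) passed at -0.96 with overlapping untreated arrays and no longer passed without IV-VI untreated replicate 1 (-0.93), VII-VIII untreated replicate 2 (-0.81), or any one Venus array (-0.95, -0.81, -0.91 and -0.86), or with normexp background correction (-0.6).

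Of 14 androgen-responsive Sertoli genes 6 rose and 4 fell, with a median of 0.28. The number that fell was 2 with a replicate block, and also 2 without VII-VIII untreated replicate 2, IV-VI Venus replicate 2 or either Venus array of VII-VIII. Cldn3, a claudin that androgen induces in Sertoli cells, stood at -0.27, 0.21, 0.62 and 0.7 at VII-VIII, against -2.76, -1.95, -1.56 and -1.35 at IV-VI. All later arrays were above all earlier ones, with a difference of 2.22 (SE 0.19, adjusted p = 8.98e-05). The dopamine receptor gene Drd4 rose by 1.66, the neuronal tubulin gene Tubb3 by 1.36 and the decarboxylase gene Ddc by 0.94 (0.68 with normexp background correction, not passed), while the glycerol phosphate dehydrogenase gene Gpd1 fell by 0.57, with a second probe at -1.05 that did not pass.

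Junction genes moved in both directions. Of 21 tight junction genes 8 rose and 7 fell, with a median of -0.08 that lay between -0.09 and 0.05 over the scaling alternatives. After normexp background correction 4 rose and 4 fell, and Cldn12 (0.33) and Marveld3 (-1.06) did not pass. Beside Cldn3, the claudin genes Cldn13 (1.87) and Cldn12 (0.47), the scaffold gene Magi1 (0.92) and the adhesion molecule gene F11r (0.5) rose. Marveld3, a tight junction membrane protein related to occludin, was well above background on all 4 IV-VI arrays and on no VII-VIII array, and was at least 10.9-fold lower at VII-VIII (limma adjusted p = 1.79e-05). Its levels were -7.16, -6.68, -7.23 and -6.53 at VII-VIII, against -2.36, -1.95, -2.76 and -2.84 at IV-VI.

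Of 17 genes of other junctions and adhesion 8 fell and 4 rose, with a median of -0.24. Under normexp background correction 2 fell and 3 rose, with a median of -0.06. Jup (plakoglobin), the catenin of desmosomes, stood at 2.21, 1.83, 1.95 and 1.99 at VII-VIII, against -1.22, -2.22, -3.13 and -3.1 at IV-VI. The later arrays lay close together and far above the earlier ones, a difference of 4.41 (SE 0.32, a 21.3-fold rise, adjusted p = 5.18e-05). The cadherin genes Cdh1 (2.03) and Cdh2 (1.27) rose, Cdh1 with 1 IV-VI array not well above background.

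Espn (espin), an actin bundling protein of the ectoplasmic specialization that anchors spermatids to the Sertoli cell, fell by 2.44. It stood at -3.95, -4.01, -2.54 and -2.58 at VII-VIII, against -1.66, -1.57, -0.07 and -0.02 at IV-VI. Arms differed at both stages, but the step was nearly the same in each (SE 0.07, adjusted p = 7.45e-06). Itga6, the integrin partner at that structure, fell by 1.81 (SE 0.17, adjusted p = 0.000141), and alpha-catenin (Ctnna1) by 1.13 (SE 0.09, adjusted p = 6.02e-05). With normexp background correction Espn was -1.48, Itga6 -0.85 and Cdh1 0.71, and Itga6 (adjusted p = 0.0651) and Cdh1 (adjusted p = 0.0806) did not pass.

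Lipid genes held single large rises. Of 20 cholesterol and lipid genes 4 rose and 4 fell, and 7 fell without untreated replicate 1 of IV-VI. Cidea, a lipid droplet protein, stood at 3.52, 4, 3.31 and 2.97 at VII-VIII, against -0.3, -1.72, -0.34 and -1.31 at IV-VI, a difference of 4.37 (SE 0.37, a 20.6-fold rise, adjusted p = 8.35e-05). In dnRARa tubules it stood at 0.65 and -0.08 at VII-VIII, against -4.88 and -7.38 at IV-VI, where 1 of 2 arrays was not well above background. Its dnRARa step was 6.42 beside a Venus step of 3.96 (adjusted p = 0.56).

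The cholesterol synthesis genes Cyp51 (2.11) and Fdps (2.02) rose, while Sqle (-0.78) of the same pathway and its regulator Srebf2 (-1.06) fell. The lipid droplet coat gene Plin2 fell by 0.89. Of 23 genes of lysosome and phagocytosis 17 did not pass, 2 rose and 3 fell. In that list 5 fell without IV-VI untreated replicate 1, and 5 rose without IV-VI Venus replicate 2. The engulfment gene Elmo1 rose by 1.75 with its brightest probe and not with the others (0.13 and -0.33), and Scarb1, the receptor by which Sertoli cells take up apoptotic germ cells, rose by 1.29. Gas6, a bridging ligand for that uptake, fell by 2.02 (SE 0.14, adjusted p = 4.14e-05).

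Among stress and immediate early genes 4 of 13 rose and 3 fell, close to the shares of all genes tested (25.3% and 26.8%). Hspa1a, the inducible heat shock protein, rose by 1.75 (SE 0.12, adjusted p = 4.18e-05), the phosphatase gene Dusp1 by 1.64 and the transcription factor gene Jund by 1.26. The small heat shock protein gene Hspb1 fell by 0.82. Of 11 interferon response genes 3 rose and 1 fell, led by the RNA sensor gene Ddx58 (2.04) and Oasl2 (1.48). The 1 that fell, Stat2 (-0.36), did not pass with a replicate block (adjusted p = 0.0607). Nor did it without IV-VI untreated replicate 1 (-0.31) or 2 (-0.32), VII-VIII untreated replicate 1 (-0.25) or 2 (-0.37) or IV-VI Venus replicate 2 (-0.36).

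Among genes measured on all 8 arrays the largest rises belonged mostly to genes with no list here. Col15a1, a basement membrane collagen gene, stood at 3.83, 3.79, 2.76 and 2.96 at VII-VIII, against 0.39, -2.55, -4.08 and -3.61 at IV-VI, a difference of 5.8 (SE 0.65, a 55.6-fold rise, adjusted p = 0.000267). The IV-VI arrays were spread widely, the first untreated replicate being far above the other 3. After it and Cd46 came Trim42 (5), the tetraspanin-like gene Tm4sf4 (4.92), the kinase gene Dyrk4 (4.85), Hemgn (4.74), the amino acid transporter gene Slc36a3 (4.7), the actin capping gene Tmod1 (4.63), the collagen gene Col26a1 (4.62), Mgat4f (4.61), Tmco5b (4.58) and Unc93a (4.57).

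The first IV-VI untreated array exceeded the second by over 1 on the log2 scale for 227 of the 1659 genes that rose at least 2-fold, while the reverse held for 47. The same counts were 14 and 14 for VII-VIII untreated, 5 and 14 for VII-VIII Venus and 24 and 19 for IV-VI Venus. Among the 1301 genes that fell at least 2-fold they were 8 and 59 for IV-VI untreated, 0 and 66 for VII-VIII Venus, 31 and 27 for VII-VIII untreated and 5 and 3 for IV-VI Venus. Over all 19025 genes tested they were 415 and 556 for IV-VI untreated and 17 and 148 for VII-VIII Venus. For VII-VIII untreated they were 163 and 237, and for IV-VI Venus 57 and 183. Trim42 stood at 1.33 and -1.3 on those IV-VI untreated arrays, Hemgn at 1.68 and -1.01 and Tm4sf4 at -1.69 and -4.65. Without the first array 10034 genes rose or fell, 9180 of them among the 9918 found with it.

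Some genes were measured only at VII-VIII. Among the largest bounds were those of Il22 (at least 7.65-fold higher), the synaptic adhesion gene Lrrc4c (at least 7.61-fold), the neuregulin gene Nrg3 (at least 6.21-fold), the nicotinic receptor gene Chrnb4 (at least 6.14-fold), Tafa2 (at least 5.96-fold), the prostaglandin receptor gene Ptgfr (at least 5.43-fold) and the sodium proton exchanger gene Slc9a4 (at least 5.2-fold). With normexp background correction Tafa2 (0.88), Ptgfr (0.89) and Slc9a4 (0.92) did not pass, while Il22 (1.34), Lrrc4c (1.12), Nrg3 (1.11) and Chrnb4 (1.08) did.

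Among genes measured on all 8 arrays the largest falls began with Ssxb1, a member of a family of testis antigens. It stood at -4.7, -4.51, -2.68 and -2.16 at VII-VIII, against 2.5, 2.54, 3.07 and 2.91 at IV-VI, a difference of -6.27 (SE 0.34, a 77-fold fall, adjusted p = 2.09e-05). Ssx genes are close paralogs, and the probe may not tell them apart. Then came Gm6583 (-4.7), Limch1 (-4.2), the orphan receptor gene Nr4a1 (-4.07), the neurotrophin receptor gene Ngfr (-3.68) and Pkib (-3.67). After these were the interleukin receptor gene Il17re (-3.52), Prss46 (-3.43), Golga7b (-3.41), the Wnt coreceptor gene Lrp5 (-3.4), Gsdme (-3.38) and Ankrd22 (-3.26). Other Limch1 probes gave -2.26 and -0.88, the last of them brighter on the 8 arrays of the step. A second Ngfr probe gave -0.63. A second Pkib probe gave 0.22 and did not pass.

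Nr4a1 is an immediate early gene, and stood at -1.61, -0.75, -0.9 and -1.17 at VII-VIII, against 2.86, 2.83, 3.19 and 2.96 at IV-VI, with no overlap. Beside Marveld3, genes that fell to background were Chst5 (at least 6.61-fold lower), the signalling regulator gene Rgs17 (at least 5.46-fold), Bhlhe23 (at least 5.25-fold), Dmrta2 (at least 5.14-fold), Tafa4 (at least 3.64-fold) and Cd300lf (at least 2.49-fold). After normexp background correction none of these 6 passed, with differences of -0.78, -0.81, -0.49, -0.61, -0.55 and -0.35 in that order.

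Markers of cells outside the germ line and Sertoli cells were checked in the same arrays. No Leydig cell marker of 9 tested rose or fell (0 passed in limma, and the smallest unadjusted p among them was 0.194), and their summed signal ran from 14.8 to 30.4 at VII-VIII and from 12.9 to 52.6 at IV-VI. Pltp fell without VII-VIII untreated replicate 2 (-0.68). With a replicate block Cyp17a1 (-0.48, adjusted p = 0.0487) and Hsd3b1 (-0.66, adjusted p = 0.0254) passed. Of 9 macrophage markers 2 fell, Mrc1 (-1.15) and Adgre1 (-1.57, and -0.78 with slide as a block, not passed), with sums from 3.38 to 9.49 at VII-VIII and from 3.96 to 15.1 at IV-VI, lower at VII-VIII in 4 of 4 same-numbered pairs. The myoid sum ran from 26.1 to 43 and from 22.1 to 37.1, higher at VII-VIII in 4 of 4 pairs. Of 7 peritubular myoid markers 2 rose, Actg2 (0.59) and Acta2 (0.25), and 1 fell, Myh11 (-0.39). Acta2 did not pass without IV-VI untreated replicate 2 (0.24), VII-VIII untreated replicate 2 (0.23), IV-VI Venus replicate 1 (0.27) or 2 (0.22) or VII-VIII Venus replicate 1 (0.21), and its other probes gave -0.16 and -0.18. The number of myoid genes that fell was 2 without IV-VI untreated replicate 1 or VII-VIII untreated replicate 2.

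Of 9 endothelial markers 2 rose, Vwf (0.74) and Egfl7 (0.47), and 1 fell, Kdr (-1.86). Egfl7 did not pass without IV-VI untreated replicate 2 (0.42), VII-VIII untreated replicate 2 (0.39), IV-VI Venus replicate 1 (0.35) or VII-VIII Venus replicate 1 (0.48) or 2 (0.46). The number of endothelial genes that fell was 2 without IV-VI untreated replicate 1 or VII-VIII untreated replicate 2. After normexp background correction Kdr (-0.81), Egfl7 (0.45), Acta2 (0.16) and Myh11 (-0.36) did not pass. The part of these cells in the results above was not tested.

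Alas2, the heme synthesis enzyme of erythroid cells, stood at -5.32, -5.37, -3.32 and -3.34 at VII-VIII, against 1.12, 1.21, 2.31 and 2.33 at IV-VI. It was not well above background on either untreated array of VII-VIII, where it was at least 76.1-fold lower, and the Venus difference was -5.65 (pooled adjusted p = 7.45e-06). The globin genes did not follow it: Hba-a1 had a difference of 0.03 (adjusted p = 0.93) and Hbb-bt of -0.24 (adjusted p = 0.666). In Venus tubules Alas2 averaged -3.33 at VII-VIII and 0.16 at IX-XII.

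**Figure D5:**
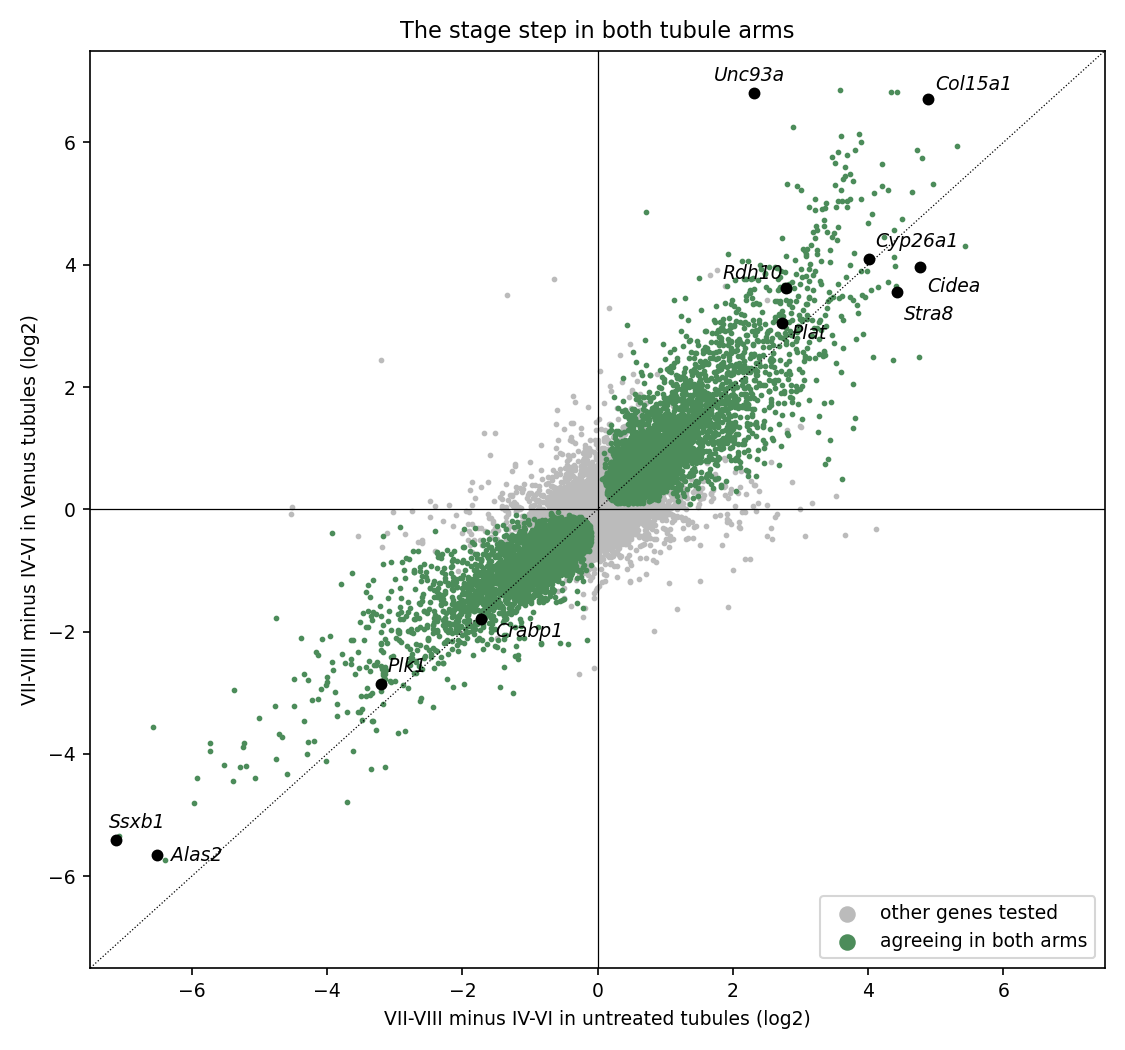
The step (VII-VIII minus IV-VI, log2) of 19025 genes in untreated tubules (x axis) and Venus tubules (y axis), green where the gene rose or fell by the criterion above. Black points are named genes, and the dotted line marks equal steps. The untreated values of Cyp26a1 and Alas2 include undetected arrays. Most named genes lie near that line, while Unc93a moved by 2.32 in untreated and 6.81 in Venus tubules.

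The arms were also tested apart. Taken alone, the untreated arm gave 8485 genes (44.6%) and the Venus arm 7985 (42%), and of the 9918 genes that rose or fell 6099 passed in both arms separately. The Venus count was 4983 without Venus replicate 1 of VII-VIII. With normexp background correction the untreated arm gave 1895 genes and the Venus arm 2937. The test of the difference between arms, Venus step minus untreated step, called 33 of 19025 genes (0.173%), 13 of them among the 9918. The arms lay on different slides scanned on different days, so virus, slide and scan day cannot be told apart in that difference. Another 598 genes passed the fit of both arms without agreeing in both.

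In the untreated arm IV-VI and VII-VIII lay on different slides, so that slide and stage cannot be told apart there for this step. The untreated VII-VIII and IX-XII arrays shared a slide. In the Venus arm each of 2 slides, scanned on different days, held both stages of the step. With slide as a fixed block the step rests on the Venus arm alone, and 6947 genes rose or fell, against 9918 without it. Replicate arrays correlated at 0.983 to 0.994 and all 8 arrays at 0.946 to 0.994, over all gene names with a value on the 8 arrays, tested or not. From 58.05% to 74.41% of spots were well above background. The precision of each value is limited by the number of arrays, 4 on each side.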

How the data were processed

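RNA (0.2 µg) from each sample was hybridised to 1 one-colour Agilent array. Per the file headers, the authors extracted spot intensities in Agilent's Feature Extraction software, release 9.5.3.1 (the submitters' processing notes give 9.5). The deposited processed signal is an intensity after the scanner software's background treatment, the other deposited columns used are its control, detection and outlier marks, and the deposited series values equal that signal.

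Control spots (1639 of 45018) and spots with an outlier mark were left out, spots of a probe averaged, and log2 signal scaled to the 75th percentile of each array. A gene took its probe of highest mean over the 34 arrays (33370 gene names, 16398 with a symbol from RefSeq). A gene was tested when well above background on all 4 arrays of at least 1 stage. Fits used limma 3.58.1 in R 4.3.3 with Benjamini-Hochberg adjustment. On simulated data with 200 changed genes of 19025, 76% of 2-fold changes were recovered for the step in both arms, and 11 unchanged genes passed. Far fewer genes were changed there than passed in the data. The adjustment depends on that share, so the 76% does not give the sensitivity of the reported step. Simulated noise was drawn independently for each array, with no arm effect and no correlation of same-numbered arrays. The 11 therefore does not give the number of false calls in the reported step.

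Deviations of same-numbered arrays correlated at 0.355, 0.145 and 0.416 in the untreated, Venus and dnRARa arms. The fits reported carry no replicate block, and the blocked value stands beside a result whose call it changes. The sources used here do not say whether replicates came from separate animals, so p-values measure only the spread between these samples, which may be technical. This comparison and the 25 gene lists were chosen with earlier results of these data known. Genes named were all members of the retinoic acid lists, up to 6 of each other list with the smallest adjusted p, the 12 largest rises and falls measured on all 8 arrays, up to 8 bounds in each direction, and the 5 smallest p-values of the dnRARa difference. Ccne2, Pcna, Kif11, Birc5, Bub1b and Ccna2 were named after their values were seen. Alternatives covered scaling, background correction, detection filter, probe choice, model, slide, scan day and replicate blocks, and leaving out each array. Some genes chosen by this rule are not reported here.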

Additional observations from a re-analysis of the deposited data

Results flagged for a closer look

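For 4 named genes the fitted step passed the test of the difference between the arms (limma, Venus step minus untreated step, adjusted over 19025 genes). The arms differ in virus, slide and scan day, which cannot be told apart here. Unc93a moved by 6.81 in Venus and 2.32 in untreated tubules, a difference of 4.49 (adjusted p = 0.000428). Dyrk4 moved by 6.1 and 3.6 (difference 2.51, adjusted p = 0.0244). Tafa2 had a fitted difference of 2.25 (adjusted p = 0.0479), but it was not well above background at IV-VI in either arm. Its steps are bounds, at least 9.67-fold in Venus and 3.67-fold in untreated tubules, and no difference between the arms can be read from them. Hebp1 fell by 1.62 in Venus and by 0.22 in untreated tubules (difference -1.4, adjusted p = 0.025). Its pooled difference of -0.92 did not pass with a replicate block (adjusted p = 0.0503) or without any one Venus array (-0.76 to -0.8).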

How the results depend on the processing

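With 10516 genes for the step in both arms, 8485 for untreated and 7985 for Venus tubules, 9918 that rose or fell in both arms and 10687 for VII-VIII against IX-XII, normexp background correction gave 5269, 1895, 2937, 5031 and 6884, and a 2-fold minimum 3037, 3217, 2943, 2960 and 3473. Without the arm block 5281 passed for the step and 5217 rose or fell. The difference between arms (33 genes) gave 53 with quantile normalization, 67 with median scaling, 0 with normexp, 4 without a detection filter, 132 in the model of all 24 tubule arrays, 60 with an intensity trend, 55 with a slide block, 1 with a scan day block and 5 with a replicate block. The dnRARa step minus Venus step (0 genes) gave 102 with detection on every array, 76 in the 24-array model and 119 with an intensity trend. The cause was not tested. Leaving out 1 array gave 8934 to 10153 genes for the step, 5783 to 7828 in untreated and 4983 to 8637 in Venus tubules, 8828 to 10034 in both arms, 9761 to 10813 against IX-XII, 1 to 236 for the difference between arms and 0 to 23 for dnRARa minus Venus. The difference between arms was 174 and 236 without IV-VI untreated replicate 1 and 2, 1 and 2 without IV-VI Venus replicate 1 and 2, and 1 without either VII-VIII Venus array. The dnRARa count was 23 without IV-VI dnRARa replicate 1. With the mean of detected probes Acta2 was -0.03 and Rxra 0.95. A replicate block gave 10170 genes for the step and 9484 in both arms, and calls of named genes that it changed are given beside the genes. Normexp ended the call of 39 of the 164 named genes that passed. Among gene lists not given in the report with that correction, 1 receptor or cofactor gene rose and 3 fell, 3 meiotic entry genes rose and 5 fell, 1 spermatogonial gene rose and 3 fell, 2 pachytene genes rose and 4 fell, 4 androgen-responsive genes rose and 2 fell, 2 lysosome genes rose and 1 fell, 2 interferon genes rose and 0 fell, and 3 immediate early genes rose and 1 fell. With a slide block 3 meiotic entry genes rose and 5 fell, 3 pachytene genes rose and 4 fell, 2 Sertoli markers rose and 4 fell, 4 adhesion genes rose and 5 fell, and 4 immediate early genes rose and 1 fell. Genes not well above background at 1 stage have only a bound there.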
